A study of Mus musculus with 6 samples.

Results

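The genes of glycolysis, of the pentose phosphate pathway and of the tricarboxylic acid (TCA) cycle were examined, with the enzymes that steer pyruvate between them and the carriers of the Slc2a and Slc16a families. Members were taken by gene symbol, and 42 of the 7384 genes in the deposited tables matched: 14 of glycolysis, 5 of pyruvate entry, 4 of the pentose phosphate pathway, 7 of the TCA cycle, 5 of the glucose carrier family Slc2a and 7 of the monocarboxylate carrier family Slc16a. Genes of these pathways outside the tables, among them Hk2, Gapdh, Eno2, Idh2 and the catalytic subunits of pyruvate dehydrogenase, were not analysed here. The study compared vascular smooth muscle cells grown from mouse aorta in which Sirt6 had been targeted with a small interfering RNA (siSirt6, 3 libraries) with control cultures (Control, 3 libraries), all for 48 h. What the control cultures received, and the strain and age of the mice, are not given in the sources used here. Nothing in the labels says that the libraries came from separate animals or cultures, so the errors measure the spread between these libraries, which may be technical.

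Glycolysis splits glucose into pyruvate in the cytosol, and lactate dehydrogenase turns pyruvate into lactate, which leaves the cell through monocarboxylate carriers. The pentose phosphate pathway branches off at the first phosphorylated sugar; its oxidative arm makes NADPH and its non-oxidative arm, run by transketolase and transaldolase, exchanges carbon units between pentoses and glycolytic sugars. Pyruvate enters the mitochondrial TCA cycle as acetyl-CoA through pyruvate dehydrogenase, which the Pdk kinases switch off, or as oxaloacetate through pyruvate carboxylase. Sirt6, an NAD-dependent deacylase of chromatin, is known from other cells as a repressor of glycolytic genes. Arterial smooth muscle is known for making lactate even when oxygen is present.

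Deposited values are read counts divided by 1 factor per library, called normalised read counts here. Those of Sirt6 were 251.7, 257.0 and 270.4 in Control against 44.5, 59.8 and 63.5 after targeting, 0.215 of the Control level (log2 fold change -2.21 ± 0.141 SE). The listed genes took between 14458847 and 15526399 reads per library, and the whole depth is unknown. The tables hold almost only genes that differ: 99.8% of the 7179 tested genes passed an adjusted p of 0.05 (limma), with 50.5% of the tested genes higher and 49.3% lower in siSirt6, so passing the test says little here and direction and size are read against these shares. Of the smooth muscle markers checked, 6 of 8 were listed and 5 rose, with a summed level of 63721 to 63957 in Control and 102338 to 103408 in siSirt6. Endothelial markers (7 of 10 listed, all 7 higher) summed to 940.6 to 1082 in Control and 1712 to 1874 in siSirt6. Of these, Cldn5 reached the required value of 10 in 3 libraries only with its siSirt6 libraries, so nothing is read from its rise. Adventitial fibroblast markers (8 of 9 listed, 3 higher and 5 lower) summed to 88835 to 89805 and 74257 to 75491, in the same order, and macrophage and leukocyte markers (3 of 10 listed, 3 higher, of which Lyz2 and C1qb turned lower under an alternative) to 1777 to 1822 and 1978 to 2018. Adipocyte markers (4 of 6 listed, 2 higher and 2 lower) summed to 2288 to 2369 and 2215 to 2297. Schwann cell and neuron markers (4 of 6 listed, 3 tested, 1 higher and 2 lower) summed to 1743 to 1811 and 3128 to 3291, and no listed marker was at 0 in every library. The part of these shifts in the results below was not tested, and in such bulk libraries fewer cells of a type and less RNA per cell cannot be told apart.

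All 42 members were tested, and 31 were higher and 11 lower in siSirt6, each with group ranges that did not overlap, as was so for 96.8% of all tested genes. In glycolysis 12 of 14 rose and 2 fell, with a median log2 fold change of 0.48, beside 0.08 over all tested genes. All 4 pentose phosphate genes rose (median 0.43), and 6 of 7 TCA cycle genes rose and 1 fell (median 0.25). Of the 5 genes of pyruvate entry, 3 rose and 2 fell (median 0.15), and of the Slc2a genes 3 rose and 2 fell (median 0.19). In the Slc16a family 3 rose and 4 fell (median -0.56), but 1 of those that fell, Slc16a9, passed the filter on low values only with its Control libraries, and with a filter at a mean of 5 CPM, which leaves it out, 3 rose and 3 fell (median -0.174). A rise of at least 1.5-fold was reached by 6 members, against 11.2% of all tested genes: Pfkl, Tpi1, Eno1, Pgk1, Taldo1 and Slc16a3. A level of at most 1/1.5 of Control was reached by 6 members, against 12.1% of all tested genes: Ldhb, Slc2a9, Slc2a13, Slc16a4, Slc16a7 and Slc16a9, the last of them under the same limit of the filter.

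**Figure D1:**
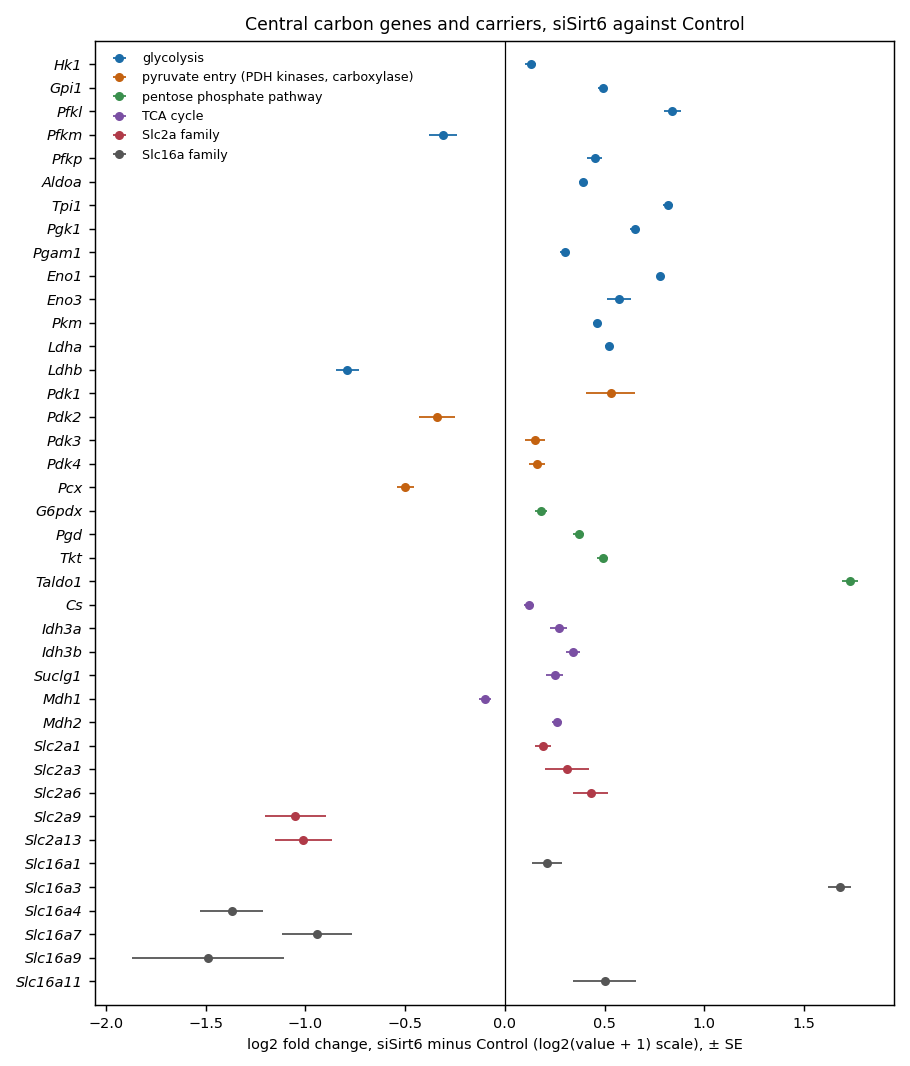
Log2 fold change (siSirt6 minus Control, on the log2(value + 1) scale) of member genes, ordered by pathway and step, with the standard error as bars. Most enzymes lie to the right of 0, and Pfkm and Ldhb lie to the left in glycolysis. Slc16a9, at -1.49, passed the filter on low values only with its Control libraries, so nothing is read from its position. Apart from Slc16a9, the Slc16a family spans from -1.37 (Slc16a4) to 1.68.

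Summed over the 14 listed glycolytic genes, the share of listed reads was 0.818%, 0.816% and 0.809% in Control and 1.091%, 1.080% and 1.089% in siSirt6. Pentose phosphate genes went from 0.090% ± 0.0017 to 0.123% ± 0.0009 (SD, n = 3, as throughout). The TCA cycle genes took 0.150% ± 0.0007 and 0.156% ± 0.0004. The 5 genes of pyruvate entry together took a smaller share in siSirt6, at 0.027% ± 0.0002 beside 0.031% ± 0.0001. In that sum 3 genes rose, while Pcx fell from a mean of 1731 to 1222 and Pdk2 from 325.5 to 257.1. The 3 siSirt6 libraries thus gave a larger share to glycolysis than any Control library, and a smaller one to the sum over pyruvate entry.

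The promoters below are those of the members on which the results turn: Pfkl, with the largest rise in glycolysis; the lactate dehydrogenase pair Ldha and Ldhb, which went in opposite directions; Taldo1 and Slc16a3, with the largest rises of their groups; and Pcx, which fell. Each is the 250 bases before a start site, 5′ to 3′ on the strand of the gene, taken from RefSeq on GRCm38.p6, the assembly also called mm10; where the table held several start sites, the nearest to that of the gene's principal transcript was taken. Capitals mark every match to ACGTG or GCGTG, the core of the element bound by hypoxia-inducible factors, on either strand; in CACGTG, the E-box bound by MYC and its relatives, the strands overlap and give 2 matches.
Pfkl, chr10:78009808-78010057, minus strand: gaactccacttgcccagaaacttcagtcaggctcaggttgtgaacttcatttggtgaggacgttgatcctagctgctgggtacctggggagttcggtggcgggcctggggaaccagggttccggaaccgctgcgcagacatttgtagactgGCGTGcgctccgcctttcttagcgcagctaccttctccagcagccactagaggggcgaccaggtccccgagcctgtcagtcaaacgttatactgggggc
Ldha, chr7:46846832-46847081, plus strand: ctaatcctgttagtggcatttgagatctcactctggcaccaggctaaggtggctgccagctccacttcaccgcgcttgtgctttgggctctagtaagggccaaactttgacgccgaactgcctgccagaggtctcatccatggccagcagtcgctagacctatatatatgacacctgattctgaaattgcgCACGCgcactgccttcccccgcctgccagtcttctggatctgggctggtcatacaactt
Ldhb, chr6:142507958-142508207, minus strand: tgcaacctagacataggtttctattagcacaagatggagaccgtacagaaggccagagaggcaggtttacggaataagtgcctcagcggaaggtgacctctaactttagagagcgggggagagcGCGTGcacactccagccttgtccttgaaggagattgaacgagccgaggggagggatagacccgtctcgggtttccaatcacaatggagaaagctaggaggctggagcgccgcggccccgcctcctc
Taldo1, chr7:141391910-141392159, plus strand: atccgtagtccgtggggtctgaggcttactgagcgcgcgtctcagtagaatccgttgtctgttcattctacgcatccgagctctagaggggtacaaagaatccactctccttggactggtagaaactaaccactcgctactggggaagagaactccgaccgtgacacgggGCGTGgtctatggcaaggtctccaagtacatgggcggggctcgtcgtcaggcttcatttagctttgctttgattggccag
Slc16a3, chr11:120948817-120949066, plus strand: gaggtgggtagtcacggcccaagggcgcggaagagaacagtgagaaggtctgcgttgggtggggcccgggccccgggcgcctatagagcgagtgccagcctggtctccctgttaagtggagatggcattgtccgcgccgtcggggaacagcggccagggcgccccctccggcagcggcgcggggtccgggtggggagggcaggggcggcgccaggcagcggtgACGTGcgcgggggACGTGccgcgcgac
Pcx, chr19:4510222-4510471, plus strand: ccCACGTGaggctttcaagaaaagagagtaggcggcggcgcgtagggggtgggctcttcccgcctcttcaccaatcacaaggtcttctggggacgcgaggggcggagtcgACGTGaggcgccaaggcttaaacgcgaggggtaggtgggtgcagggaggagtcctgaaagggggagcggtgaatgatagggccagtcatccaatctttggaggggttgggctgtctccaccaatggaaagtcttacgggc
A promoter was matched by symbol for 37 of the 42 members, and 28 of these (75.7%) held at least 1 core. The same held for 57.7% of 5363 other listed protein-coding genes and for 38.6% of all 32851 promoters in the RefSeq table, whose median GC contents were 60.8% and 52.4% beside 59.6% for the members. The core stood in the promoters of members that rose and of members that fell. Ldha and Ldhb held 1 match each, Slc16a3 2 and Pcx 3. Members of both directions also lacked a core in these windows: Tpi1, Pkm, Gpi1, Hk1, Cs and Idh3b rose, and Slc2a9, Slc2a13 and Slc16a4 fell. A match is a run of letters and not a measured binding site.

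The first steps of glycolysis rose unequally. Hk1, a hexokinase that traps glucose in the cell, stood at 3535, 3515 and 3494 in Control and at 3804, 3847 and 3892 in siSirt6, a change of only 1.09-fold. Gpi1, which isomerises glucose phosphate to fructose phosphate, rose from 6093 ± 117 to 8570.1 ± 153 (1.41-fold). Hk1 was the least raised of the glycolytic enzymes that rose with the deposited scaling, but not after correction for transcript length and GC content, where it stood at log2 0.18 (adjusted p = 2.17e-07), above Aldoa and Pgam1. It lost its call when libraries were instead scaled to equal sums over the tables' genes, called listed totals here (log2 0.01, adjusted p = 0.683).

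Phosphofructokinase, which commits sugar to glycolysis, is built from 3 subunit types, and they did not move together. The liver type Pfkl stood at 1213, 1106 and 1145 in Control and at 2125, 2026 and 2069 in siSirt6. It rose 1.8-fold (log2 fold change 0.84 ± 0.041 SE, adjusted p = 8.24e-19), the largest log2 rise among the 14 glycolytic genes. The platelet type Pfkp stood at 1847, 1774 and 1789.6 in Control and at 2350.4, 2529 and 2525 in siSirt6, a 1.37-fold rise. The muscle type Pfkm went the other way, at 656.7, 580.3 and 636.4 in Control and at 523.1, 463.9 and 525.5 in siSirt6. All siSirt6 libraries of Pfkm lay below all Control libraries, at 0.807 of Control (log2 -0.31 ± 0.068 SE, adjusted p = 1.12e-04). Per kb of transcript, the share of Pfkl in the sum of the 3 subunits went from 32.2% ± 0.316 to 41.9% ± 1.13, and that of Pfkm from 22.5% ± 0.681 to 13.2% ± 0.821. The share of Pfkp, from 45.3% ± 0.84 to 44.9% ± 1.73, moved by less than the spread between libraries. The family sum per kb was 961.6 in Control and 1326 in siSirt6.

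All 4 listed enzymes of the middle of the pathway rose, while Gapdh was not analysed here. Aldoa, the aldolase that cleaves the 6-carbon sugar, rose from 19479.5 ± 295 to 25499.6 ± 164 (1.31-fold). Tpi1, which interconverts the triose phosphates, stood at 4867, 4787 and 4665 in Control and at 8408, 8276 and 8573 in siSirt6. The groups of Tpi1 were far apart, with a 1.76-fold rise (log2 0.82 ± 0.025 SE, adjusted p = 1.07e-24). Pgk1, the first ATP-making step, rose from 7575 ± 119 to 11873 ± 104 (1.57-fold), and the mutase Pgam1 that follows it rose from 6193 ± 43.6 to 7629 ± 156 (1.23-fold). Among these 4 enzymes, Pgam1 and Aldoa rose least.

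Enolase, which makes phosphoenolpyruvate, was listed with the ubiquitous gene Eno1 and the muscle gene Eno3. Eno1 stood at 23399.7, 23422 and 23280.0 in Control and at 40279.7, 39709 and 40032 in siSirt6, a 1.71-fold rise (log2 0.78 ± 0.015 SE). Eno3 stood at 604.0, 562.8 and 559.2 in Control and at 842.5, 805.1 and 912.7 in siSirt6, a 1.48-fold rise (log2 0.57 ± 0.060 SE). Both isoenzymes rose, and Eno1 made up nearly all of the pair per kb, from 96.9% ± 0.126 to 97.3% ± 0.161 of the sum. Pkm, pyruvate kinase, which ends glycolysis, rose from 24659 ± 385 to 34018 ± 527 (1.38-fold). The deposited values are per gene and do not separate the splice forms of Pkm.

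Lactate dehydrogenase has a muscle-type subunit, Ldha, and a heart-type subunit, Ldhb, and these went in opposite directions. Ldha stood at 13946, 13935 and 13938 in Control and at 20292, 19831 and 19662 in siSirt6. It rose 1.43-fold (log2 0.52 ± 0.018 SE, adjusted p = 9.51e-23). Ldhb stood at 932.8, 967.8 and 966.7 in Control and at 507.3, 589.7 and 560.9 in siSirt6. Each siSirt6 library was below every Control library, at 0.578 of Control (log2 -0.79 ± 0.059 SE, adjusted p = 7.33e-14). Ldhb had the largest absolute fall in log2 among the glycolytic genes, and its share of the pair per kb of transcript went from 8.5% ± 0.165 to 3.62% ± 0.31.

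**Figure D2:**
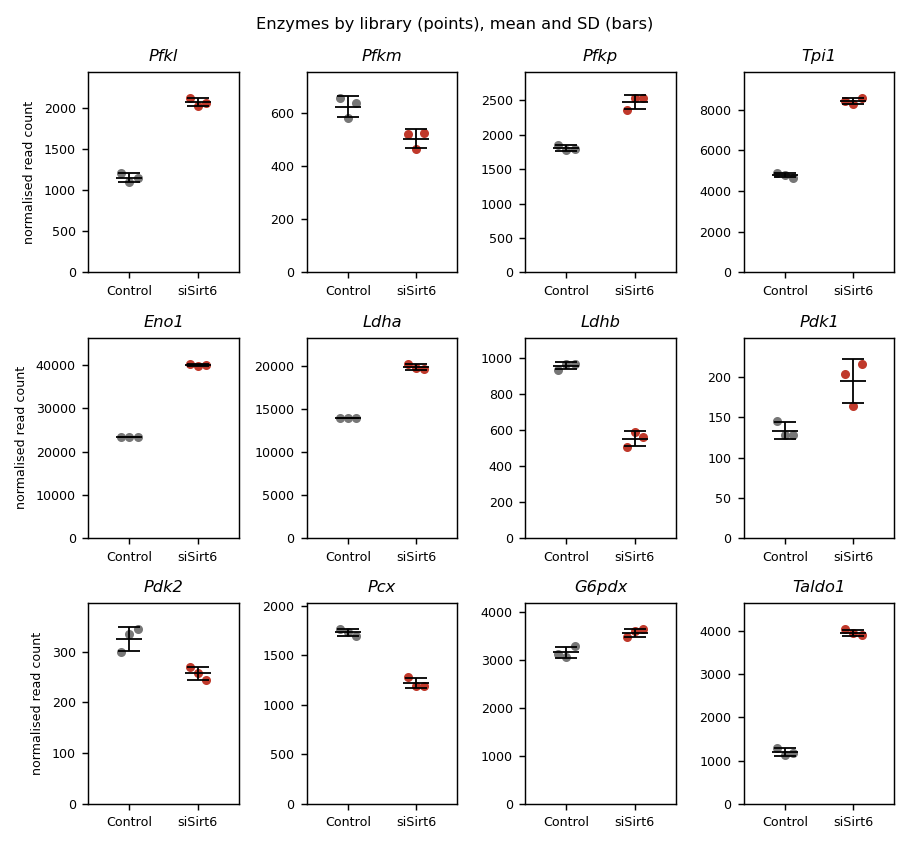
Normalised read count of 12 enzymes in each of the 3 Control and 3 siSirt6 libraries (points), with the mean as a line and the SD as bars. The groups do not overlap in any panel; Pfkm, Ldhb, Pdk2 and Pcx are lower in siSirt6 and the other 8 are higher.

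At the entry of pyruvate into mitochondria, the kinases that inactivate pyruvate dehydrogenase were divided. Pdk1 stood at 145.4, 127.5 and 127.5 in Control and at 203.7, 163.9 and 216.5 in siSirt6, a 1.46-fold rise (log2 0.53 ± 0.122 SE), with siSirt6 replicate 2 well below the other 2 siSirt6 libraries. Pdk2 stood at 298.6, 334.0 and 343.8 in Control and at 269.0, 258.7 and 243.5 in siSirt6, lower in each siSirt6 library, at 0.79 of Control (log2 -0.34 ± 0.089 SE). With the deposited scaling Pdk3 and Pdk4 moved little. After correction for length and GC content Pdk1 stood at log2 0.79 and Pdk4 at 0.30. With listed totals Pdk1 stood at 0.42 and Pdk4 at 0.04. Pdk3 stood at 837.2, 845.1 and 798.7 in Control and at 898.8, 936.0 and 916.8 in siSirt6 (log2 0.15 ± 0.051 SE). Its adjusted p of 0.00651 became 0.0504 over all annotated genes. Pdk4 stood at 1405, 1382 and 1462 in Control and at 1563, 1602 and 1575 in siSirt6 (log2 0.16 ± 0.040 SE). These were the abundant kinases of the family, at 40.4% and 42.0% of the listed kinase sum per kb in Control and 41.7% and 43.6% in siSirt6. The share of Pdk2 went from 14.96% ± 0.983 to 11.02% ± 0.564 and that of Pdk1 from 2.66% ± 0.226 to 3.62% ± 0.535.

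Pcx, pyruvate carboxylase, which refills the cycle with oxaloacetate, stood at 1762, 1737 and 1693 in Control and at 1282, 1192 and 1193 in siSirt6. It fell to 0.706 of Control (log2 -0.50 ± 0.042 SE, adjusted p = 1.11e-12). No siSirt6 library of Pcx came near the lowest Control library.

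All 4 listed pentose phosphate genes rose, Taldo1 the most. Taldo1, transaldolase of the non-oxidative arm, on chromosome 7 at 141392199 to 141402968 (GRCm38), stood at 1292, 1119 and 1177 in Control and at 4034, 3945 and 3900.5 in siSirt6. The groups were far apart and the spread within each was small. Taldo1 rose 3.31-fold (log2 1.73 ± 0.041 SE, adjusted p = 4.57e-25), the largest log2 rise among the 42 members. Tkt, transketolase of the same arm, stood at 4535, 4284 and 4342 in Control and at 6028, 6229.6 and 6246 in siSirt6, a 1.41-fold rise (log2 0.49 ± 0.027 SE). In the oxidative arm, Pgd stood at 4057, 4072 and 3811 in Control and at 5219, 5213 and 5033 in siSirt6, a 1.3-fold rise (log2 0.37 ± 0.029 SE). G6pdx, the entry enzyme of the oxidative arm, rose from 3152 ± 119 to 3563 ± 82.9, only 1.13-fold. The rise of G6pdx was not called with listed totals (log2 0.06, adjusted p = 0.0801).

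TCA cycle genes moved little, with no member past 1.5-fold in either direction. Idh3b, a subunit of the NAD-dependent isocitrate dehydrogenase, stood at 2109.6, 2206 and 2197 in Control and at 2849.8, 2644 and 2745 in siSirt6, a 1.27-fold rise (log2 0.34 ± 0.035 SE) and the largest of the group. Idh3a, the catalytic subunit of the same enzyme, stood at 1241, 1187 and 1240.1 in Control and at 1524, 1495 and 1413 in siSirt6 (1.21-fold, log2 0.27 ± 0.043 SE). The ratio between these subunits moved by about the spread between libraries, with Idh3b going from 72.5% ± 0.892 to 73.4% ± 0.92 of the pair per kb. Suclg1, a subunit of succinyl-CoA ligase, rose 1.19-fold, and citrate synthase Cs 1.08-fold. The call of Suclg1 was lost after correction for length and GC content (log2 0.05, adjusted p = 0.28) and that of Cs with listed totals (log2 -0.0020, adjusted p = 0.941).

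The malate dehydrogenases split by compartment. The mitochondrial enzyme Mdh2 stood at 5338, 5369.6 and 5314 in Control and at 6522, 6278 and 6353 in siSirt6, a 1.2-fold rise (log2 0.26 ± 0.025 SE). The cytosolic enzyme Mdh1 stood at 3239.5, 3071 and 3174 in Control and at 2964, 2956 and 2933 in siSirt6 and was the only listed TCA cycle gene to fall, to 0.933 of Control (log2 -0.10 ± 0.031 SE, adjusted p = 0.00328). Mdh1 went from 28.9% ± 0.63 to 24.1% ± 0.322 of the pair per kb of transcript. After correction for transcript length and GC content (below), Mdh2 no longer differed by the test (log2 -0.04, adjusted p = 0.159) while Mdh1 stayed lower (log2 -0.15, adjusted p = 4.97e-05).

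**Figure D3:**
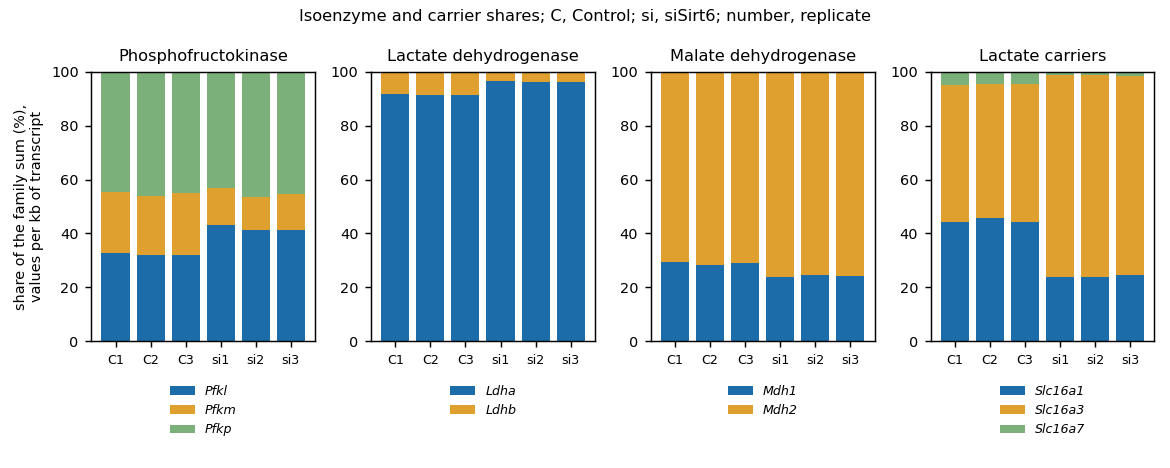
Share of each gene in the sum of its family, from normalised read counts per kb of transcript, in each library (C1 to C3, Control; si1 to si3, siSirt6). In the siSirt6 libraries Pfkl takes more and Pfkm less of phosphofructokinase, Ldhb and Mdh1 take less of their pairs, and Slc16a3 takes at least 74.2% of the 3 lactate carriers.

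Among the Slc2a carriers, Slc2a1, the basal glucose carrier, was the most abundant per kb, at 453.5 in Control and 516.1 in siSirt6. It stood at 1513, 1440.0 and 1482 in Control and at 1694, 1607 and 1746 in siSirt6, a 1.14-fold rise (log2 0.19 ± 0.041 SE). Slc2a6, a carrier of lysosomal membranes, followed at 117.1 in Control and 158.1 in siSirt6 per kb. Slc2a6 stood at 244.9, 238.5 and 267.5 in Control and at 334.2, 316.5 and 363.2 in siSirt6, a 1.35-fold rise (log2 0.43 ± 0.088 SE). Slc2a3, a high-affinity glucose carrier, rose from 160.0 ± 4.6 to 199.6 ± 19.9 (1.25-fold); its adjusted p of 0.00881 became 0.0682 over all annotated genes, and 0.0508 without siSirt6 replicate 1.

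The carriers of the family whose main substrate is not glucose fell. Slc2a9, which carries urate, stood at 126.8, 133.4 and 132.3 in Control and at 57.4, 59.8 and 71.8 in siSirt6, which is 0.481 of Control (log2 -1.05 ± 0.152 SE). Slc2a13, a carrier of myo-inositol, stood at 140.5, 154.8 and 170.9 in Control and at 75.2, 85.6 and 69.7 in siSirt6, which is 0.494 of Control (log2 -1.01 ± 0.142 SE). Both had siSirt6 values well below their lowest Control value. The order of levels per kb in Control was Slc2a1, Slc2a6, Slc2a3, Slc2a9 and Slc2a13.

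The Slc16a family held the widest range of changes. Slc16a3, the lactate exporter of glycolytic cells, on chromosome 11 at 120948480 to 120960868 (GRCm38), stood at 389.3, 403.1 and 444.3 in Control and at 1344, 1314 and 1311 in siSirt6. It rose 3.21-fold (log2 1.68 ± 0.058 SE, adjusted p = 3.08e-23). Slc16a1, the widespread lactate carrier, stood at 348.3, 380.7 and 392.1 in Control and at 431.1, 424.7 and 441.3 in siSirt6, a 1.16-fold rise (log2 0.21 ± 0.075 SE, adjusted p = 0.00833). Without Control replicate 1 the adjusted p of Slc16a1 was 0.0579. Slc16a7, a high-affinity lactate and pyruvate carrier, stood at 95.6, 94.4 and 96.6 in Control and at 43.5, 46.4 and 59.3 in siSirt6, which is 0.521 of Control (log2 -0.94 ± 0.175 SE). The sum of these 3 lactate carriers per kb was 188.2 in Control and 407.4 in siSirt6, and the share of Slc16a3 in it went from 50.5% ± 0.867 to 74.9% ± 0.612, that of Slc16a1 from 44.9% ± 0.857 to 24.0% ± 0.423 and that of Slc16a7 from 4.63% ± 0.26 to 1.11% ± 0.19.

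The remaining Slc16a genes described here were low. Slc16a4 stood at 125.9, 141.2 and 127.5 in Control and at 52.4, 46.4 and 52.0 in siSirt6, which is 0.382 of Control (log2 -1.37 ± 0.158 SE). Slc16a9 stood at 29.3, 33.1 and 28.0 in Control and at 4.0, 16.5 and 14.6 in siSirt6, with an SE of 0.382 on its log2 fold change of -1.49; because of the filter, nothing is read from its fall. Slc16a11 stood at 76.1, 67.2 and 63.7 in Control and at 104.8, 90.7 and 98.9 in siSirt6, a 1.42-fold rise (log2 0.50 ± 0.159 SE), which DESeq2 on 5 libraries did not call (adjusted p = 0.0882).

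**Figure D4:**
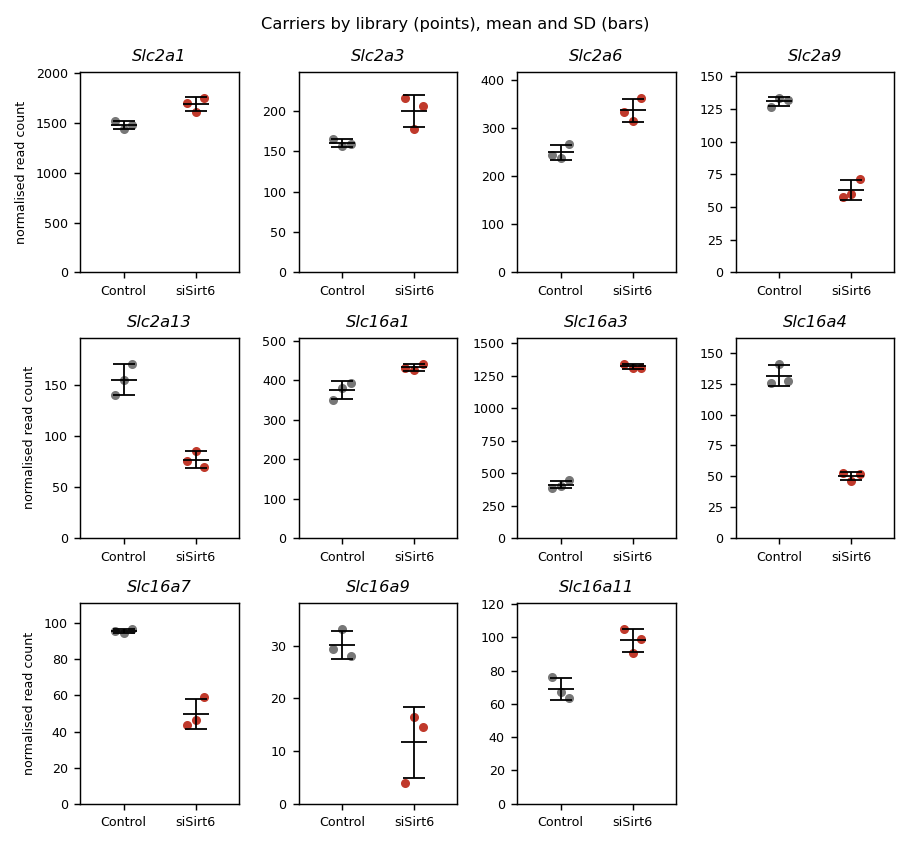
Normalised read count of Slc2a and Slc16a carriers in each library (points), with the mean as a line and the SD as bars. Slc16a3 rises from about 412.2 to 1323 on average, and Slc2a9, Slc2a13, Slc16a4 and Slc16a7 are lower in siSirt6 with no overlap of the groups. Slc16a9 is shown as well, but because of the filter nothing is read from its fall.

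Other enzymes and partners of these pathways were divided in direction, as were all tested genes (50.5% higher and 49.3% lower). Of 14 listed enzymes of neighbouring sugar and pentose steps, 8 rose (Rbks, Tigar, Prps1, Gpd1, Gys1, Pygl, Pgm1 and H6pd, from 1.03-fold to 2.65-fold) and 6 fell, among them Ldhd, Gpd1l, Gfpt1, Khk and Prps2, to between 0.563 and 0.81 of Control. Rbks, at the top of that range, passed the filter on low values only with its siSirt6 libraries, so nothing is read from its rise. H6pd turned to -0.08 with listed totals and lost its call with TMM scaling (adjusted p = 0.525) and without Control replicate 1 or 2 or siSirt6 replicate 2 or 3 (adjusted p = 0.0757 to 0.174). After correction for length and GC content Prps2 and Pgm1 were not called (adjusted p = 0.114 and 0.197), and with listed totals Pygl and Pgm1 were not (adjusted p = 0.161 and 0.773). Around pyruvate dehydrogenase, Mpc1 of the mitochondrial pyruvate carrier, Pdp1 and Pdpr fell to between 0.379 and 0.788 of Control. Pdp1 encodes a phosphatase that acts against the Pdk kinases, and Pdpr is a further gene of that phosphatase. Lipt2, of lipoate synthesis, rose 1.42-fold. After the same correction Pdp1 and Lipt2 were not called (log2 -0.10 and 0.31, adjusted p = 0.342 and 0.0944), nor was Lipt2 without Control replicate 2 (adjusted p = 0.0521), while Mpc1 and Pdpr stayed lower. Of 14 genes of succinate dehydrogenase, citrate export and glutamate metabolism, 7 rose (Sdhaf1, Sdhb, Got2, Slc25a1, Got1, Sdhc and Slc25a10, from 1.12-fold to 2.5-fold) and 7 fell (Ogdhl, Acly, Sdhd, Slc25a11, Glud1, Sdhaf2 and Sdha, to between 0.703 and 0.918). The succinate dehydrogenase subunits, which sit in both the cycle and the respiratory chain, were split, with Sdhb and Sdhc higher and Sdha and Sdhd lower. In that list Acly, Sdhaf2 and Slc25a10 were not called after the correction (adjusted p = 0.117, 0.137 and 0.863), and Slc25a10 was not called with listed totals or without Control replicate 1 (adjusted p = 0.368 and 0.0576).

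Partners of the carriers also moved apart. Bsg, the chaperone that brings Slc16a1 and Slc16a3 to the cell surface, rose from 16058 ± 330 to 20991 ± 519 (1.31-fold), while Emb, the chaperone of Slc16a7, fell from 1919 ± 29.7 to 1288 ± 2.98 (0.671 of Control). Correction for length and GC content took the log2 fold change of Bsg from 0.39 to 0.09. Of the arrestin-domain genes that lower glucose uptake, Arrdc4 rose 1.36-fold and Txnip fell to 0.869; Nptn and Stxbp3 fell to 0.896 and 0.762.

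Transcription factors known to drive glycolytic genes did not all go one way. Myc rose from 670.1 ± 20.4 to 1044 ± 44.8 (1.56-fold; log2 0.64, and 0.31 after correction for length and GC content). Hif1a, the hypoxia-inducible factor subunit best known for inducing glycolysis, fell from 1623 ± 38.6 to 1332 ± 39.3 (0.821 of Control), a fall that was not called after that correction (log2 -0.01, adjusted p = 0.81). Its relative Epas1 fell from 4298 ± 51 to 2053 ± 71 (0.478 of Control). Their partner Arnt fell to 0.838 with overlapping group ranges, Hif3a fell to 0.848, and the prolyl hydroxylase gene Egln3 rose 1.7-fold; Srebf1 rose 1.06-fold, but turned to -0.04 with listed totals and was not called with TMM scaling or without siSirt6 replicate 1 (adjusted p = 0.0831 and 0.0954). Of 11 listed targets of the hypoxia-inducible factors outside glycolysis, 6 rose (Ankrd37, Car9, Fam162a, Bnip3, Ero1a and P4ha1). The other 5 (Adm, Ddit4, Bnip3l, Vegfa and P4ha2) fell, and P4ha1 stood at -0.04 under listed totals. Car9 passed the filter on low values only with its siSirt6 libraries, so nothing is read from its rise. Over all tested genes 50.5% were higher and 49.3% lower. These lists are described by counts, and no difference between them and the glycolytic genes was tested.

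The listed glycolytic genes have short transcripts, with a median length of 1926 bases beside 3001 over all tested genes. When a smooth dependence on transcript length and on GC content was taken out of every library, 12 glycolytic genes were still higher and 2 lower, with a median log2 fold change of 0.35, beside -0.01 over all genes, of which 36.7% were higher and 36.7% lower. Aldoa kept a log2 fold change of 0.09 in place of 0.39, and Pgam1 0.12 in place of 0.30. Pfkl and Pfkp, with transcripts of 3730 and 4145 bases, stood at 0.87 and 0.61 in place of 0.84 and 0.45. Ldhb, with a short transcript of 1304 bases, was further below Control than before, at -1.07. In the TCA cycle 4 genes were higher and 1 lower after the removal, and Suclg1 and Mdh2 were not called. Taldo1 and Slc16a3 remained the largest rises, at 1.42 and 1.76. Among the other carriers, Slc16a1 and Slc2a3 both stood at 0.45, in place of 0.21 and 0.31. Slc2a6 and Slc16a11 stood at 0.26 and 0.37 in place of 0.43 and 0.50. The falls of Slc16a7 and Slc2a13 were smaller, at -0.57 and -0.70 in place of -0.94 and -1.01.

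**Figure D5:**
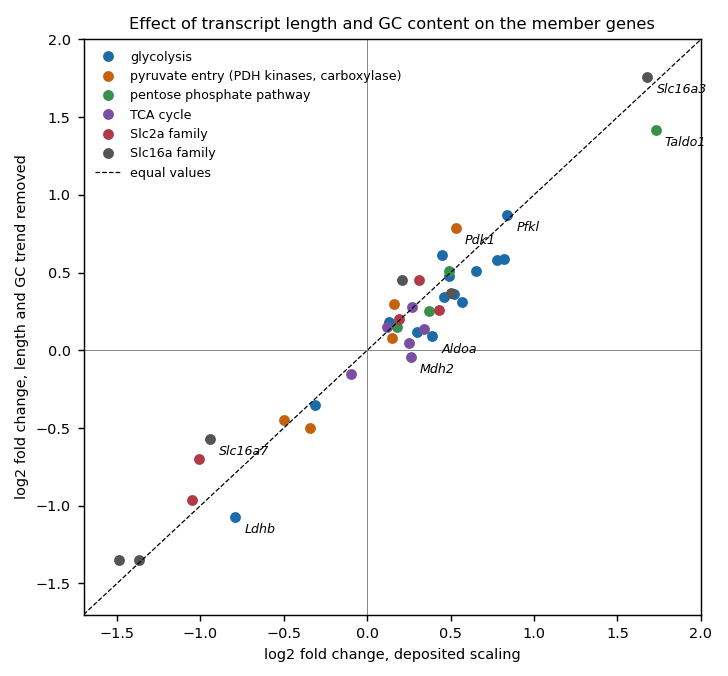
Log2 fold change of member genes with the deposited scaling (horizontal) and with the dependence on transcript length and GC content taken out (vertical); the dashed line marks equal values. Mdh2 crosses 0, Aldoa comes near it, and Ldhb, Slc16a3 and Taldo1 stay far from it.

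The scaling of the libraries bears on the small changes. With listed totals, the median of all tested genes went from 0.08 to -0.03, with 37.7% higher and 49.7% lower, while 11 of the 14 glycolytic genes stayed higher and 2 lower (median 0.36). Among the calls lost were those of Hk1, G6pdx, Cs, Pdk3, Pdk4, Slc2a1, Slc2a3 and Slc16a1, and 4 TCA cycle genes and 1 glucose carrier remained higher. The fall of Ldhb, Pfkm, Pcx, Pdk2 and Mdh1 and the rise of Pfkl, Tpi1, Eno1, Taldo1 and Slc16a3 held under that scaling. Adjustment over all annotated genes left 28 members higher and 11 lower, beside 45.9% and 44.4% of all tested genes.

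Some members have near-identical copies, and neither the counting of shared reads nor the use of strand in it is stated. Transcripts of other genes matched at 95% identity over at least 200 bases for Eno1 (3 genes), Pgk1 and Ldha (4 each), Pkm and Slc16a9 (2 each), and Tpi1, Gpi1, Pgam1, Ldhb and Pfkp (1 each); for Pfkp the listed one was Pitrm1. Of the copies in the tables, Eno1b rose from 298.9 ± 12.3 to 450.4 ± 40, Gm4735 1.58-fold and Tpi-rs11 1.79-fold, and the Pkm matches Gm6560 and Gm49759 1.49-fold and 1.31-fold. Their levels were small beside those of Eno1, Tpi1 and Pkm. No such match was found for Taldo1, Slc16a3, Pfkl, Pfkm or Pcx.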

How the data were processed

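Gene expression was measured by RNA sequencing in 6 libraries, 3 Control and 3 siSirt6, made with a stranded mRNA kit, per the labels' protocols. Named in the submitters' processing notes are the tools HISAT2, HTSeq, Cufflinks and Trimmomatic and the build mm10, with no version or role for any. Each deposited table holds a signal per gene, which the authors appear to have made by dividing read counts by 1 factor per library: all values (100%) were whole multiples of 1 step within 0.001 reads, and the factors were 0.9609 to 1.0354. The origin of the factors and of the choice of listed genes is not given.

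From these values, limma 3.58.1 in R 4.3.3 (trend, robust, 2-sided) was run on log2(value + 1) for the 7179 genes that reached 10 in 3 or more libraries, with Benjamini-Hochberg adjustment over all of them and a threshold of 0.05. Fold changes given as N-fold are ratios of group means; log2 fold changes are on the log2(value + 1) scale, so those of low genes are understated. Lengths, GC content and positions came from GENCODE vM21 on GRCm38 (1 principal transcript per gene; 7331 of 7384 genes), promoters from RefSeq, near copies from blastn 2.17.0. The fit was tested on simulated data in which most genes did not change. The listed genes almost all differ, so that test does not measure the error rate here. Members and lists were chosen with earlier results of these data known. Named were Sirt6, the listed members and the called genes of 6 lists of pathway partners, except some that enter the counts and are not reported here; genes with near copies were named after their values were seen. Alternatives were other scalings, pseudocounts and filters, a replicate block, each library left out, removal of a spline trend on length and GC content, adjustment over all 55536 annotated genes, and edgeR 4.0.16 and DESeq2 1.42.0 on recovered reads of 5 libraries; siSirt6 replicate 1 was left out of these because its step, 0.988823, was not accepted by an automatic check of whole reads, a choice made after seeing the data.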

Additional observations from a re-analysis of the deposited data

How the results depend on the processing

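All 42 member calls held, in direction and threshold, with TMM scaling, pseudocounts of 0.5 and 5 and no filter, as did the 41 members kept by a mean of at least 5 CPM. With listed totals 33 held, 8 lost their call and Cs turned to -0.0020; with the length and GC trend removed 39 held, 2 lost it and Mdh2 turned to -0.04. Over all annotated genes 3 calls were lost, with edgeR 1 and with DESeq2 4, the last 2 on 5 libraries, where edgeR called 3407 of all tested genes higher and 3518 lower and DESeq2 2945 and 3293. Leaving out Control replicate 1 or siSirt6 replicate 1 lost 1 call each. The cause of these changes was not tested.

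With listed totals the median log2 fold change was -0.034 over all tested genes, 0.359 in glycolysis, 0.031 in pyruvate entry (1 gene higher), 0.314 in the pentose phosphate pathway, 0.136 in the TCA cycle, 0.067 in Slc2a (1 gene higher) and -0.677 in Slc16a. With the trend removed these medians were -0.012, 0.346, 0.079, 0.377 and 0.139 for the first 5 and -0.430 for Slc16a. TMM gave 0.059 over all genes, 0.452 in glycolysis and 0.229 in the TCA cycle; edgeR gave 0.058, 0.461 and 0.220, and DESeq2 0.056, 0.459 and 0.218, with 1 Slc16a gene higher. A mean of at least 5 CPM gave 0.069 over all genes and -0.174 in Slc16a, where it dropped Slc16a9. Leaving out each library gave TCA cycle medians of 0.233 to 0.257. Of 86 genes outside the members, 10 lost their call with the trend removed and 6 with listed totals. Listed totals turned H6pd to -0.08, Srebf1 and P4ha1 to -0.04 and Lyz2 to -0.01, and the trend removal turned C1qb to -0.07, Lyz2 to -0.13, Ly6a to -0.01 and Cidec to -0.08.

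Libraries with the same replicate number did not deviate together (correlations of -0.019, 0.027 and -0.001 over 7179 genes). Such deviations may be mostly counting noise, so the check cannot tell whether the numbers pair the libraries. With a replicate block 3629 genes were higher and 3540 lower, and no member call changed. Whole-library depth is unknown, which limits statements on low genes such as Slc16a9.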
